A study of Mus musculus with 45 samples.

Results

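The Ly6 genes on mouse chromosome 15 encode small proteins of the three-finger fold, most of them tied to the cell surface by a lipid anchor. Several members, among them Ly6a (Sca-1), Ly6e and Ly6c1, are known to respond to interferons and are used to mark stem, endothelial and myeloid cells. Others, such as Lynx1 and Ly6h, are made in neurons and bind nicotinic acetylcholine receptors. Acetylation of histone H3 at lysine 9 (H3K9ac) marks active promoters and enhancers, so its level at such a locus reports on regulatory activity in the cells of the tissue.

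The locus was taken as all H3K9ac domains that overlap chromosome 15 from 74550000 to 74950000 on the mouse build mm9. It holds 14 of the 44165 domains of the study, numbered here 1 to 14 from left to right. The interval was chosen by an earlier result in the same libraries: domain 7 (74761667 to 74764197) was known to be higher in tau than in wild type mice at 11 months. Values of that comparison are therefore given as a description, without a test.

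The deposited files name no genes, and the gene table at hand belongs to a later build (GRCm38.p6), so no domain could be matched to a gene. The label of the locus rests on its position alone. In that table, 29 protein-coding genes run from Psca to Gpihbp1, and 23 of them carry names of the Ly6 family or its relatives, 15 of these beginning with Ly6. In order, these include Slurp1, Lypd2, Slurp2, Lynx1, Ly6d, Ly6k, Gml, Gml2, Ly6m, Ly6e, Ly6i, Ly6a, Ly6c1, Ly6c2, Ly6g, Ly6f, Ly6l and Ly6h. The stretch was bounded by these gene names and not by the interval. Which of the genes lie inside the interval was not determined, and those toward either end may lie outside it. For the same reason the hippocampal origin of the libraries was not checked against marker genes, and no sequence of a domain is shown.

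H3K9ac was measured by chromatin immunoprecipitation and sequencing in whole hippocampus. MAPT P301S mice carry mutant human tau, which aggregates in neurons, and are called tau mice here. They were set against wild type (wt) mice in females aged 6 months (2 tau and 3 control libraries) and in males aged 11 months (3 and 3 libraries), so age and sex changed together. CK-p25 mice are double transgenic and, once induced, make p25 in forebrain neurons, where it overactivates Cdk5. Their controls were littermates labelled CK. Hippocampi were taken 2 weeks after induction at an age of 3.5 months and 6 weeks after induction at 4.5 months, with 3 libraries from females in each of the 4 groups. The labels name neither the promoter of the tau transgene nor say whether a library came from 1 mouse or from several, and p-values measure the spread between libraries, which may in part be technical. The tau and CK-p25 series used different lots of the antibody and were normalised and tested apart.

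Libraries of the tau series held 4097974 to 6181925 reads in domains, and those of the CK-p25 series 996369 to 4133003. The 2 shallowest libraries, CK replicate 3 and CK-p25 replicate 3 at 6 weeks, held 996369 and 1308372. The labels also give a cross correlation for each library, which is higher where reads are more enriched. It was 0.206 to 0.257 in tau and 0.296 to 0.342 in wild type libraries at 11 months. In the CK-p25 series it was 0.108 to 0.179 in CK and 0.141 to 0.187 in CK-p25 libraries at 2 weeks. At 6 weeks it was 0.0640 to 0.137 in CK and 0.0738 to 0.177 in CK-p25 libraries. The part of depth and enrichment in the differences below was not tested beyond the alternatives named.

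The 14 domains differed widely in size and level. Their widths ran from 148 bp (domain 5) to 5454 bp (domain 8, from 74784545 to 74789998), against a median of 776 bp over all domains. Domain 8 held the most reads, 454 per library on average. Per length, the 2 domains at the right end were the most acetylated. Domain 14 (74916549 to 74917602) had 81.6 CPM per kb (CPM, reads scaled to the size of the library) and domain 13 (74915878 to 74916413) had 49.7, averaged over 23 libraries. Domains 1, 2 and 8 followed at 26.5, 20.2 and 21.8 CPM per kb. The other 9, including domain 7 at 8.30 CPM per kb, lay between 8.07 and 13.2. The centres of domains 3 to 7 lie between -10.6 and 0 kb from that of domain 7, and domain 2 is separated from domain 3 by 168209 bp without a domain.

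Domain 7 was low in every control group and higher in 3 of the 4 disease groups. In wild type mice at 6 months the libraries were at 13.1, 14.1 and 14.3 CPM, and in tau mice of that age at 14.8 and 14.9 CPM. Both tau libraries were just above the 3 wild type libraries, and the difference was small, as tested below. At 11 months the wild type libraries were at 9.88, 11.7 and 11.7 CPM and the tau libraries at 28.7, 21.8 and 31.8 CPM, without overlap. This is the difference by which the locus was chosen, a log2 change of 1.32 ± 0.14 (SE).

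In the CK-p25 series, a separate set of mice, domain 7 rose at both times. At 2 weeks the CK libraries were at 14.7, 11.4 and 14.4 CPM and the CK-p25 libraries at 24.95, 39.1 and 37.8 CPM. The group means were 13.5 ± 1.83 and 34.0 ± 7.83 CPM (SD, n = 3 each), a 2.56-fold rise (log2 1.35 ± 0.18 SE, edgeR adjusted p = 3.89e-09). All 3 CK-p25 libraries lay above all CK libraries. At 6 weeks the CK libraries were at 19.2, 14.5 and 13.3 CPM and the CK-p25 libraries at 32.9, 37.8 and 36.3 CPM. The means were 15.7 ± 3.11 and 35.7 ± 2.52 CPM (SD, n = 3 each), a 2.11-fold rise (log2 1.08 ± 0.19 SE, edgeR adjusted p = 4.11e-05), again without overlap. Tissue from whole hippocampus was used, so more cells of a type and more acetylation per cell cannot be told apart here or in the results below.

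**Figure D1:**
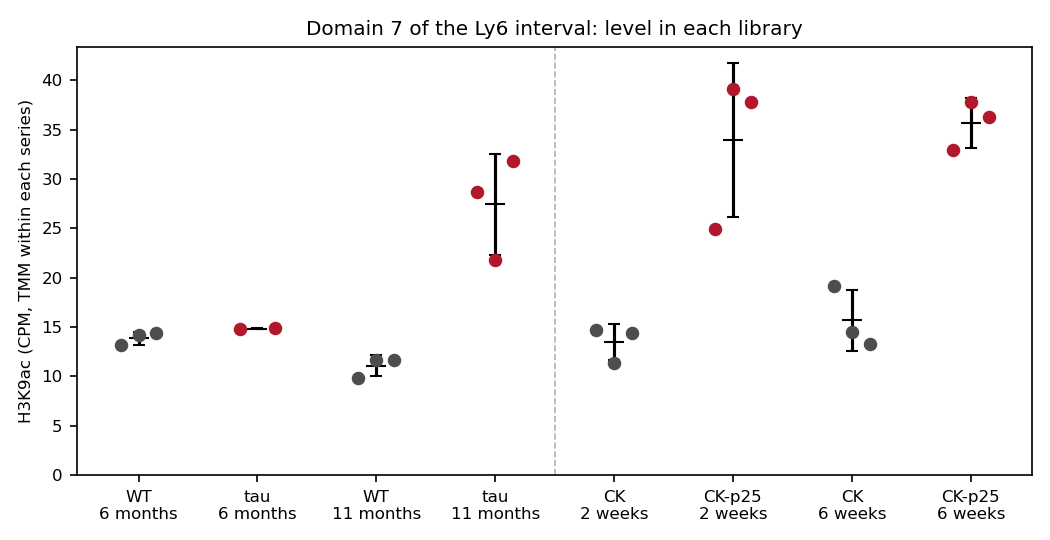
H3K9ac of domain 7 in CPM (y axis, TMM scaling within each series) in each of the 23 libraries, by group (x axis). Points are libraries (red, tau or CK-p25; grey, controls), and bars are the mean and SD of each group. The libraries of tau at 11 months and CK-p25 at both times lie at 21.8 CPM or more and all others at 19.2 CPM or less.

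To order all 8 groups, the 23 libraries were also scaled together, with the difference in antibody lot between series left as it is. Domain 7 was then at 35.3 ± 2.51 CPM (SD) in CK-p25 at 6 weeks and 33.6 ± 7.70 in CK-p25 at 2 weeks. Tau at 11 months followed at 27.6 ± 5.22 CPM. The CK-p25 libraries at 2 weeks, at 24.7 to 38.5 CPM, overlapped those of both other groups. The highest tau library at 11 months, at 32.1 CPM, lay just below the lowest CK-p25 library at 6 weeks, at 32.5 CPM. Next came CK at 6 weeks (15.5 ± 3.14), tau at 6 months (14.8 ± 0.0946), wild type at 6 months (13.8 ± 0.613) and CK at 2 weeks (13.4 ± 1.82). Wild type at 11 months was lowest, at 11.0 ± 1.01 CPM. The lowest of the 9 libraries in the upper 3 groups, at 21.9 CPM, stood above the highest of the 14 other libraries, at 19.0 CPM. Among the other 13 domains, domain 10 alone was split in the same way, with 15.3 CPM as the lowest value of those 9 libraries and 11.8 CPM as the highest of the 14 others. The 9 libraries were grouped by the order of domain 7 and include tau at 11 months, by which the locus was chosen. How many of all domains are split in this way was not counted, so nothing is read from it.

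CK-p25 mice 2 weeks after induction had more H3K9ac at some domains in the middle of the interval. Of 13 domains tested, 5 were higher in edgeR's test (domains 3, 4, 7, 8 and 10), where 1.51% of all 38193 domains were called higher. Domain 3 is counted among the 5 although it entered the test through the CK-p25 libraries, so its call adds no support to the count. None of the 13 was called lower in edgeR's test, against 0.613% of all domains. At an unadjusted p under 0.05, 3 were lower (domains 1, 2 and 13), as were 1877 of all 38193 domains. Of the 13, the DESeq2 test called 2 higher (domains 4 and 7) and 0 lower, beside 304 of 31528 domains called in either direction. The median log2 change of the 13 domains was 0.30, and 0.27 without domain 7, while that of all domains was -0.00355. Both medians include domains 3 and 6, which exceeded the read minimum of the test in more CK-p25 than CK libraries (5 and 2, and 3 and 1).

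Domain 4 (74752826 to 74754089, left of domain 7) was at 17.2, 12.1 and 14.4 CPM in CK and at 22.8, 29.7 and 27.5 CPM in CK-p25 libraries at 2 weeks. It thus rose 1.86-fold without overlap (log2 0.90 ± 0.18 SE, edgeR adjusted p = 0.000319, n = 3 each). Domain 10 (74818533 to 74819815) was at 10.1, 11.4 and 5.64 CPM in CK and at 15.4, 16.4 and 18.4 CPM in CK-p25 libraries. Its rise was 1.74-fold (log2 0.80 ± 0.22 SE, edgeR adjusted p = 0.0207), and the groups did not overlap. Domain 8, the broad domain to the right of domain 7, changed by a smaller factor from a higher level, from 126, 121 and 124 CPM in CK to 149, 158 and 147 CPM in CK-p25 libraries. This was a 1.23-fold rise (log2 0.30 ± 0.08 SE, edgeR adjusted p = 0.0199).

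Domain 3 (74752152 to 74752577) is narrow and held few reads, 6 to 8 per CK library and 16 to 28 per CK-p25 library at 2 weeks. In CPM, the CK libraries were at 2.51, 2.07 and 3.59 and the CK-p25 libraries at 5.38, 7.30 and 5.88, so that the log2 difference was 1.25 with an SE of 0.37 (edgeR adjusted p = 0.0466). Over the CK-p25 series 5 CK-p25 and 2 CK libraries exceeded the read minimum, so that domain 3 entered the test through the CK-p25 libraries. Domains 3, 8 and 10 did not pass in the DESeq2 test, nor when replicate 1 or 3 of CK, or 2 or 3 of CK-p25, was left out. Domains 7 and 4 did in each of these, 2 in place of 5. Leaving out replicate 2 of CK also gave 2, domains 7 and 10. Domain 3 in addition did not pass without the read minimum or with cross correlation as a covariate.

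At 6 weeks after induction 5 of 13 domains were higher in CK-p25 mice (domains 4, 7, 9, 10 and 11), where 1.32% of all domains were. None of the 13 was lower in edgeR's test, against 1.33% of all domains, and 0 were lower at an unadjusted p under 0.05 or in DESeq2. Of all 38193 domains, 2424 were lower at an unadjusted p under 0.05. The median log2 change of the 13 domains was 0.65, and 0.44 without domain 7, against -0.00203 for all domains. The 0.65 is the value of domain 6, which did not pass (edgeR adjusted p = 0.670) and where the groups overlapped. Domain 6, like domain 3, entered the test through the CK-p25 libraries, with 3 CK-p25 and 1 CK libraries over the read minimum. Medians without these domains were not computed, and nothing is read from the medians.

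Domain 4 was at 13.4, 11.8 and 13.3 CPM in CK and at 25.6, 21.4 and 27.0 CPM in CK-p25 libraries at 6 weeks, a 1.88-fold rise (log2 0.91 ± 0.21 SE, edgeR adjusted p = 0.00420). Domain 10 was at 9.28, 10.5 and 8.20 CPM in CK and at 17.1, 17.1 and 20.9 CPM in CK-p25 libraries (log2 0.91 ± 0.25 SE, edgeR adjusted p = 0.0193). At both domains the groups did not overlap. Domain 10 did not pass in DESeq2, without replicate 1 or 3 of either group, or without both shallow libraries (adjusted p of 0.0621 to 0.146 in these 6 settings). Domain 4 did not pass without replicate 1 of CK-p25 (edgeR adjusted p = 0.0608).

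Domain 9 (74798147 to 74799167) was at 3.84, 7.90 and 9.23 CPM in CK and at 15.4, 13.7 and 14.7 CPM in CK-p25 libraries at 6 weeks. This was the largest of the called changes at that time, 2.44-fold (log2 1.29 ± 0.29 SE, edgeR adjusted p = 0.00307), on 9 to 12 reads per CK library. It rested on CK replicate 1, the lowest library: without it the log2 change was 0.81 and the edgeR adjusted p 0.279. Domain 11 (74826484 to 74828143) was at 14.4, 7.24 and 10.3 CPM in CK and at 19.7, 21.8 and 25.5 CPM in CK-p25 libraries (log2 0.89 ± 0.23 SE, edgeR adjusted p = 0.0100). It did not pass without replicate 2 of CK (edgeR adjusted p = 0.157) or without both shallow libraries (0.0976). At domain 8 the log2 change was 0.23 ± 0.09 and did not pass (edgeR adjusted p = 0.211), although the lowest CK-p25 library, at 123 CPM, lay above the highest CK library, at 118 CPM. Without CK replicate 1, without CK-p25 replicate 1, or without both shallow libraries, 3 domains passed in place of 5. Domain 7 was among them each time.

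**Figure D2:**
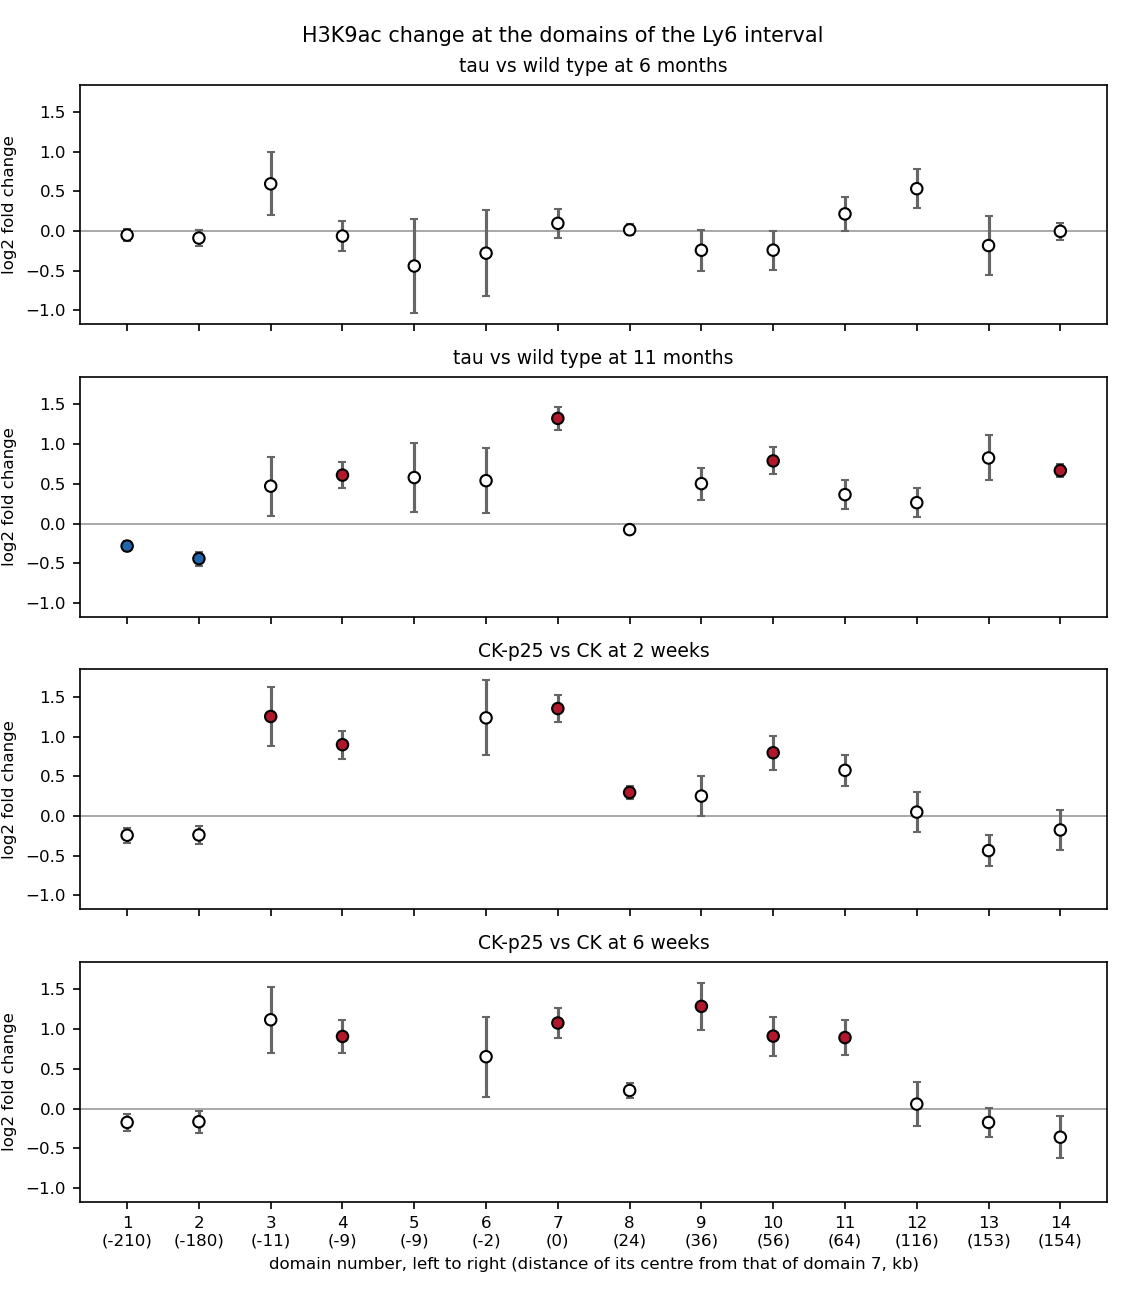
Log2 fold change of H3K9ac (y axis, disease model over control) at the domains of the interval, numbered from left to right with the distance of each centre from that of domain 7 in kb (x axis, domains evenly spaced), in 4 comparisons. Points are edgeR estimates and bars their SE; filled points passed an adjusted p of 0.05 (red, higher; blue, lower), and domain 5 was not tested in the CK-p25 series. In the CK-p25 series all 7 domains called at either time lie between -10.6 and 64.4 kb, and domains 13 and 14 are above 0 in tau mice at 11 months and below 0 in both CK-p25 comparisons.

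Averaged over both times, 7 of 13 domains were higher in CK-p25 mice (domains 3, 4, 7, 8, 9, 10 and 11), where 3.2% of all domains were called higher. Domain 3 is counted here although it entered the test through the CK-p25 libraries, with 5 CK-p25 and 2 CK libraries over the read minimum. The log2 changes of these 7 were 1.19 ± 0.28, 0.90 ± 0.14, 1.22 ± 0.13, 0.26 ± 0.06, 0.77 ± 0.19, 0.85 ± 0.16 and 0.73 ± 0.15 (SE), in that order. Their edgeR adjusted p-values ran from 4.51e-13 (domain 7) to 0.00408 (domain 9). Domain 9 did not pass in DESeq2 (adjusted p = 0.0644) or, in edgeR, without replicate 1 of CK at 6 weeks, when its log2 change was 0.53 (adjusted p = 0.158). The 7 domains are consecutive but for domains 5 and 6. Domain 6 (74760942 to 74761249), 417 bp to the left of domain 7, was at a log2 change of 0.94 ± 0.34 on 2 to 21 reads per library and did not pass (edgeR adjusted p = 0.0925). Domain 5 (74754275 to 74754422) had 1 to 16 reads in this series and was left out by the read minimum.

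None of the 13 domains was lower on average in edgeR's test, against 2.75% of all domains. At an unadjusted p under 0.05, 3 were lower (domains 1, 2 and 13), as were 2976 of all 38193 domains. DESeq2 called 0 of the 13 lower. Domain 1 (74550992 to 74554022), at the left edge, was at -0.21 ± 0.07 (log2, SE, edgeR adjusted p = 0.0587). It passed as lower with cross correlation as a covariate and without replicate 1 of CK or of CK-p25 at 2 weeks or replicate 3 of CK at 6 weeks. Domain 13 passed as lower without replicate 2 of CK at 2 weeks, replicate 3 of CK-p25 at 6 weeks or both shallow libraries.

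The effect of p25 was not shown to change between 2 and 6 weeks at any of these domains. In edgeR's test of the difference 0 of 13 passed, and 2 of 38193 domains did (0.00524%). DESeq2 called 0 of the 13. An unadjusted p under 0.05 was seen at 1817 of all 38193 domains and at 1 of the 13. That was domain 9, where the effect was greater at 6 weeks by a log2 of 1.04 ± 0.39 (edgeR adjusted p = 0.974). At domain 7 the difference was -0.28 ± 0.27, with an approximate 95% interval of -0.80 to 0.25.

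Tau mice at 6 months showed no called difference at the locus. In edgeR's test 0 of 14 domains passed, as did 0% of all 44105 domains, and DESeq2 called 0 of the 14. An unadjusted p under 0.05 was seen at 1426 of all 44105 domains and, among the 14, at domain 12 alone (74877886 to 74879003). Nothing is read from this count. Domain 12 was at 4.87, 5.79 and 6.06 CPM in wild type and at 8.29 and 7.87 CPM in tau libraries, a log2 difference of 0.53 ± 0.25 (SE, edgeR adjusted p = 1). The groups did not overlap there. At domain 7 the log2 difference was 0.10 ± 0.18, with an approximate 95% interval of -0.25 to 0.45. The median over the 14 domains was -0.06, against -0.00268 for all domains. Domains 4 and 10 were at -0.06 ± 0.19 and -0.24 ± 0.25.

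In tau mice at 11 months, the comparison that led to the choice of the locus, 4 of 14 domains were past the threshold as higher (domains 4, 7, 10 and 14), where 4.4% of all domains were. Domains 1 and 2 were past it as lower, where 7.56% of all domains were. Nothing is read from these counts. Domain 4 was at 12.2, 10.1 and 10.4 CPM in wild type and at 15.0, 17.0 and 18.2 CPM in tau libraries, a log2 change of 0.61 ± 0.16 (SE). Domain 10 was at 8.24, 11.9 and 11.1 CPM in wild type and at 15.5, 17.0 and 21.0 CPM in tau libraries (log2 0.79 ± 0.17). At both, as at domain 7, all tau libraries lay above all wild type libraries. The tau libraries were also those of lower cross correlation. With it as a covariate the log2 change was 0.58 ± 0.35 (SE) at domain 4, 1.39 ± 0.31 at domain 7, 0.36 ± 0.37 at domain 10 and 0.23 ± 0.15 at domain 14. It was -0.25 ± 0.15 at domain 1 and -0.28 ± 0.19 at domain 2. The SE was larger than without the covariate at each of these 6 domains, and the calls over all 44105 domains went from 5273 to 695.

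The 2 right-hand domains, which are 135 bp apart, differed from the middle ones in how they varied. In tau mice at 11 months, domain 14 was at 112, 125 and 133 CPM, above the wild type libraries at 68.5, 72.0 and 91.2 CPM (log2 0.67 ± 0.08, SE). Domain 13 was at 35.0, 35.9 and 43.6 CPM in tau and at 14.002, 18.3 and 32.0 CPM in wild type libraries (log2 0.83 ± 0.28). Domain 14 was past the threshold in this comparison and domain 13 was not. With cross correlation as a covariate the log2 change of domain 14 was 0.23 ± 0.15 and it was no longer past the threshold. In CK-p25 mice neither passed as higher. Domain 14 was at 96.4, 67.1 and 75.4 CPM in CK and at 78.3, 78.7 and 46.6 CPM in CK-p25 libraries at 2 weeks. At 6 weeks it was at 98.2, 128 and 116 CPM in CK and at 80.0, 73.3 and 124 CPM in CK-p25 libraries. The log2 differences were -0.18 ± 0.26 and -0.36 ± 0.26 (edgeR adjusted p = 0.907 and 0.682), and the groups overlapped at both times. At domain 13 they were -0.44 ± 0.20 and -0.18 ± 0.19 (edgeR adjusted p = 0.397 and 0.793). Whether the effects of tau and p25 differ at these 2 domains was not tested.

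At the left end the broad domains 1 and 2 were lower in tau mice at 11 months. In tau mice at 11 months, domain 1 was at 74.1, 81.4 and 74.2 CPM against 96.0, 93.5 and 89.1 CPM in wild type libraries (log2 -0.28 ± 0.07, SE). Domain 2 (74581547 to 74583942) was at 36.3, 38.5 and 39.2 CPM in tau and at 54.7, 54.7 and 45.8 CPM in wild type libraries (log2 -0.44 ± 0.09). At both domains the groups did not overlap. With cross correlation as a covariate neither was past the threshold. The direction was shared by the 400 kb to the left of the interval, where the median log2 change of 33 domains was -0.28. In CK-p25 mice the log2 differences were -0.24 ± 0.09 at 2 and -0.17 ± 0.11 at 6 weeks for domain 1. For domain 2 they were -0.24 ± 0.12 and -0.17 ± 0.14. None was past the threshold (edgeR adjusted p of 0.210 to 0.705).

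**Figure D3:**
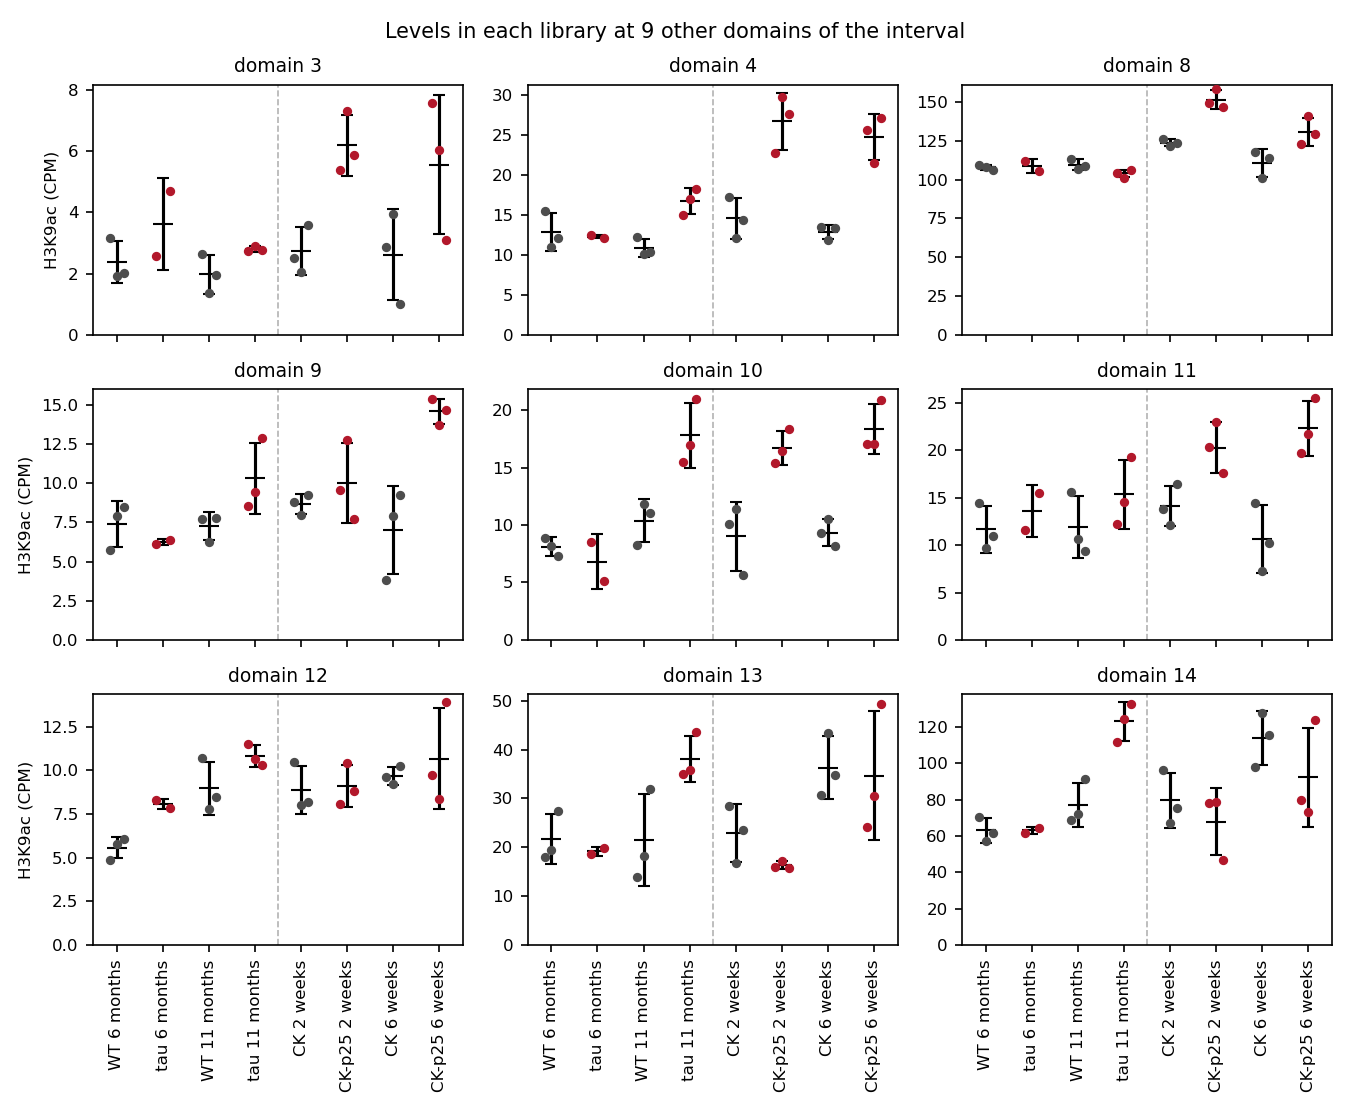
H3K9ac in CPM (y axes, each from 0) in each library at 9 other domains of the interval, by group (x axis). Points are libraries (red, tau or CK-p25; grey, controls), and bars are the mean and SD of each group, with a dashed line between the series. Domains 4 and 10 are higher without overlap in tau mice at 11 months and in CK-p25 mice at both times, domain 8 is higher without overlap in CK-p25 mice at both times though called at 2 weeks only, and domain 12 changes little in the CK-p25 series.

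Beyond the interval, the nearest domain on the left (74538650 to 74540446) was at 68.2 ± 4.78 CPM (SD, n = 3) in tau and at 77.2 ± 1.21 CPM in wild type mice at 11 months. It was at 60.1 ± 3.10 in CK-p25 and 69.8 ± 2.18 in CK mice at 2 weeks, and at 67.7 ± 7.60 and 59.0 ± 0.908 at 6 weeks. The nearest on the right started at 75379575, and the 400 kb on that side held 0 domains. It was weak, at 2.66 to 4.12 CPM on average in each of the 8 groups. In the 400 kb on the left, 24 of 34 domains were tested in the CK-p25 series. Of these 0 were higher at either time or on average, beside 1.51%, 1.32% and 3.2% of all domains. The numbers lower at 2 weeks, 6 weeks and on average were 0, 1 and 2, beside 0.613%, 1.33% and 2.75% of all domains. With 24 domains tested, nothing particular to the flank is read from these counts. Their median log2 changes were -0.20, -0.10 and -0.11. At 11 months 6 of the 33 tested there were lower in tau mice and 0 higher, beside 7.56% and 4.4% of all domains. The log2 change was below 0 at 27 of the 33, beside 21622 of all 44105 domains. The median of the 33 was -0.28, against 0.00633 for all domains.

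Reads of all 14 domains together were 438 ± 18.2 CPM (SD, n = 3) in CK and 481 ± 40.4 in CK-p25 mice at 2 weeks, with overlap, and 461 ± 16.0 and 507 ± 41.2 at 6 weeks, without overlap. In tau mice they were 396 ± 9.03 (n = 2) against 401 ± 15.4 in wild type mice (n = 3) at 6 months, and 486 ± 29.8 against 419 ± 11.98 at 11 months. Domain 7 gave 2.68% to 3.33% of these reads in CK and 5.19% to 8.58% in CK-p25 libraries at 2 weeks. At 6 weeks the shares were 2.87% to 4.33% and 6.56% to 7.76%.

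Over the 23 libraries, the level of domain 7 ran most closely with that of domain 4 among the other members tested in both series (Pearson's r = 0.873 of log2 CPM centred within each series), then with domain 10 (r = 0.771) and domain 11 (r = 0.689). It ran against domain 1 (r = -0.829) and domain 2 (r = -0.747). With domains 13 and 14, r was 0.245 and 0.150, while these 2 had an r of 0.839 with each other. The points are libraries that include the group differences above, so these values describe the pattern and carry no p.

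Among 38154 domains outside the interval, the 5 with a pattern most like that of domain 7 lay on 5 other chromosomes. They were on chromosome 6 from 121194991 to 121197321 (r = 0.968), chromosome 9 from 116082002 to 116085155 (r = 0.962) and chromosome 16 from 92695463 to 92696624 (r = 0.961). The other two were on chromosome 7 from 29160009 to 29165012 (r = 0.960) and chromosome 17 from 34334277 to 34336104 (r = 0.955). The domain on chromosome 6 had log2 changes of 1.19 in tau mice at 11 months and 1.44 and 1.03 in CK-p25 mice at 2 and 6 weeks, against 1.32, 1.35 and 1.08 at domain 7. At 6 months its change was -0.03. At 11 months, 2 weeks and 6 weeks the changes were 1.34, 1.55 and 1.20 on chromosome 16 and 0.84, 1.34 and 0.85 on chromosome 17. They were smaller on chromosome 9 (0.59, 0.85 and 0.71) and chromosome 7 (0.48, 0.46 and 0.35). The 5 were picked by r over these same libraries, so a likeness in the direction of their changes is built in. In all, 399 of these domains had an r over 0.8, and the median r was 0.0115.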

How the data were processed

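H3K9ac ChIP-seq was made from mouse hippocampus in 23 libraries, and the count table leaves out the 22 input libraries. The authors deposited whole, unscaled read counts in 1 common set of domains, with the start and end of each. The submitters' processing notes name mm9 and the tools BWA, MACS2 and Picard 1.1175, with no settings, and pooling of libraries for domain calling is not stated in these sources. Count columns with no matching sample numbered 0.

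Counts were tested with edgeR 4.0.16 (R 4.3.3; quasi-likelihood F test, robust, TMM factors, filterByExpr by group, a mean per group), with the 11 tau and 12 CK-p25 libraries fitted apart. Two-sided p-values were adjusted by Benjamini-Hochberg across every domain in the fit, and calls were made under 0.05. The SE was obtained as the absolute log2 fold change divided by the root of F, and 95% intervals are normal approximations. Levels are TMM-scaled CPM. The read minimum was computed over all groups of a series. Replicates of a group differed by more than sampling noise (chi-square per degree of freedom 1.10 to 1.88), so each library counted once.

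The members, the comparisons and the rule for named domains were chosen with earlier results of these data known. Named in full were domain 7, up to 5 called members per direction and comparison, the member with the most reads and those beside the edges, and the 5 domains most like domain 7 by Pearson's r of log2 CPM (prior count 2). Other domains described were chosen after their values were seen. Alternatives were 2 other scalings, no filter, the DESeq2 1.42.0 Wald test, a replicate block, cross correlation as a covariate, the compared groups alone and each library left out.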

Additional observations from a re-analysis of the deposited data

How the results depend on the processing

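At 2 weeks 5 domains of the interval were called in CK-p25 mice; the DESeq2 Wald test called 2, and 2 to 5 were called with each library left out in turn. At 6 weeks 5 were called, with 3 to 5 under the same omissions and 3 without both shallow 6-week libraries. On average over both times 7 were called, with 6 to 8 over all 19 alternatives, and the difference between times gave 0 in each of 19. These counts take both directions together. Where 8 were called on average, 7 were higher and domain 1 or 13 was lower. The exception was the fit without replicate 2 of CK at 6 weeks, where domain 6 was called higher as well. In tau mice at 6 months the count was 0 under 12 alternatives. At 11 months it was 6 (6 to 7 with a library left out) and 1 with cross correlation as a covariate, under which calls over all domains went from 5273 to 695; the cause was not tested. In the CK-p25 series the log2 change of domain 7 stayed called at 2 weeks, at 6 weeks and on average under each alternative run. It ranged over left-out libraries from 1.20 to 1.55 at 2 weeks, 1.01 to 1.34 at 6 weeks and 1.14 to 1.35 on average. For tau it ranged from 0.06 to 0.12 at 6 months and from 1.21 to 1.45 at 11 months, as a value without a test.

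With a replicate block, 5 domains passed at 2 weeks, 5 at 6 weeks, 7 on average, 0 for the difference, and 0 and 7 in tau mice at 6 and 11 months. Libraries with the same number correlated in their deviations from group means by -0.0119 to 0.0516, below the 0.1 asked for to treat them as pairs. At 11 months each library correlated best with its own number, a hint of pairing in the data, which was not so at 2 or 6 weeks. Leaving out 1 of the 2 tau libraries at 6 months takes the spread of the remaining one from the other groups. Depth limited domains 3, 5 and 6, with 1 to 31 reads per library.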

Other observations

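Control mice also differed at single domains of the locus, between groups that differ in age and, in the tau series, in sex. Domain 12 was at 4.87 to 6.06 CPM in the 3 wild type libraries at 6 months and at 7.78 to 10.7 CPM in those at 11 months. Domain 7 went the other way, at 13.1 to 14.3 CPM at 6 months and 9.88 to 11.7 CPM at 11 months. Both pairs of groups were without overlap. In CK mice, domain 14 was at 67.1 to 96.4 CPM at 2 weeks and at 98.2 to 128 CPM at 6 weeks, and domain 13 at 16.8 to 28.5 and 30.7 to 43.4 CPM. These differences were picked after their values were seen and were not tested.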
